A study of Homo sapiens with 9 samples.

Results

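The genes described here are 36 nuclear genes that copy, transcribe and package mitochondrial DNA, drive the making of new mitochondria, or fuse and divide the organelle. They were chosen by name, by a rule that uses no measured value, although earlier results of these data were known at the time. Each name was found among the 78894 genes of the tables. By role they were 9 genes of mitochondrial transcription, 9 of mitochondrial DNA replication, 2 of the nucleoid, 6 nuclear regulators of biogenesis, 3 of fusion and 7 of fission. Messenger RNA had been sequenced in Hap1, a near-haploid human leukaemia-derived line. In every group the endogenous SARS2 gene, which encodes the mitochondrial seryl-tRNA synthetase, carried a deletion, and a FLAG-tagged SARS2 copy under doxycycline control was kept off by leaving doxycycline out for 6 days. The groups differed in a further, constitutive, myc-tagged copy (SARS2+int14-myc in the labels, which do not say what int14 is): it was wild type (WT), R227Q or H448L, with 3 libraries each. The sources used here do not say whether each group is 1 clone or a pool.

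Mitochondrial DNA is transcribed by a dedicated single-subunit RNA polymerase, POLRMT, which needs the DNA-bending protein TFAM and the factor TFB2M to start. It is copied by the polymerase POLG with the helicase TWNK and the single-strand-binding protein SSBP1, and TFAM also coats the DNA and compacts it into nucleoids. Nuclear factors such as NRF1, the GABP complex and coactivators of the PGC-1 family switch on genes for these proteins and for the respiratory chain. The organelles themselves fuse through the mitofusins MFN1 and MFN2 on the outer membrane and OPA1 on the inner one, and divide when receptors such as MFF recruit the dynamin-like protein DNM1L.

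The data columns of the 9 libraries carried 2 prefixes, SDKYMR (WT 1, WT 2 and R227Q 1) and 4LJFHN (WT 3, R227Q 2, R227Q 3 and H448L 1 to 3). Each prefix was read here as 1 submission to the sequencing service, and every comparison carried a term for the submission. H448L was therefore compared within its own submission with 1 WT library only. Total counts ran from 9900303 to 12990504 per library. Levels are CPM, counts scaled to a library total of 1000000, given in the order of replicates 1 to 3, and 1 count stood for 0.0770 to 0.101 CPM. SARS2 itself stood at 6.20 to 8.68 CPM over the 9 libraries, and its log2 fold change against WT was 0.18 for R227Q and 0.28 for H448L (edgeR adjusted p = 0.375 and 0.286, SARS2 not called). These counts do not tell the 3 copies of SARS2 apart. SARS2 also shares 1492 exon bases with AC011455.2 on the same strand and 349 with MRPS12 on the opposite strand, so its level is uncertain. The sum of 6 epithelial markers was 78.1 to 92.5 CPM, most of it KRT18 at 69.6 to 83.5 CPM. KRT8 was at 5.58 to 8.75 CPM and EPCAM at 0.554 to 1.82 CPM, and CDH1, KRT19 and CLDN4 lay between 0 and 0.462 CPM. PTPRC, which defines blood cells, was at 0 to 0.693 CPM. The fetal globin genes HBG1 and HBG2 were at 0 in the 3 SDKYMR libraries, whereas the 6 of 4LJFHN held up to 19.9 CPM of HBG1 and 46.1 to 67.2 CPM of HBG2, and the summed level of 8 haematopoietic markers was 1.48 to 1.79 CPM against 60.6 to 89.0 CPM. Most of that sum in 4LJFHN was HBG1 and HBG2, and the other markers of the list were each under 1 CPM in every library. PTPRC went the other way, at 0.544 to 0.693 CPM in SDKYMR and 0 to 0.303 CPM in 4LJFHN. The sum of 6 fibroblast markers was 19.6 to 25.5 CPM against 52.5 to 65.8 CPM. Most of it was COL1A1, at 18.4 to 22.8 CPM in SDKYMR and 42.9 to 55.0 CPM in 4LJFHN. The haematopoietic and fibroblast sums moved with the submission. The epithelial sum overlapped, at 78.1 to 92.5 CPM in SDKYMR and 79.4 to 89.9 CPM in 4LJFHN. The part of these sums in the results was not tested. In bulk libraries, fewer cells of a type and less RNA per cell cannot be told apart. Separate cultures for the libraries of a group are not stated in the labels, so p-values here measure only the spread between libraries, which may be technical.

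All 36 genes passed the filter on low counts. Their mean levels ran from 5.92 CPM for MIEF2 to 251.6 CPM for SSBP1, with a median of 39.3 CPM. The lowest count of any of them in a library was 33, for MTERF3.

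R227Q was set against WT to ask how these genes differ when the cells depend, by design, on the R227Q enzyme. The mRNA of the fission receptor MFF was 1.30-fold lower, that of the fusion proteins MFN1 and OPA1 was 1.27-fold and 1.16-fold lower, and that of the DNA-packaging protein TFAM 1.14-fold lower. POLG, the catalytic subunit of the mitochondrial DNA polymerase, was the sole member that rose, by 1.14-fold. Of the 36 members 1 rose, 8 fell and 27 did not pass (edgeR quasi-likelihood test, adjusted p under 0.05), which is 25% called, against 17.4% of the 16908 genes tested (7.5% higher and 9.91% lower). With upper-quartile factors in place of TMM the split was 3 higher and 6 lower, with TOP1MT and PRIMPOL gained and SSBP1 and GABPB1 lost. The median log2 fold change of the members was −0.07, against 0.00 over all genes tested, and 25 of the 36 lay below 0. Changes were small: the called members lay between −0.40 and 0.19 on the log2 scale. The 9 called members had the same sign in both submissions, as did 27 of the 36, though the fit that called them used both. Leaving out WT 3, which is the single WT library of 4LJFHN, left 2 members called, MFF and MFN1, and leaving out R227Q 1, the single R227Q library of SDKYMR, left 4, MFF, MFN1, SSBP1 and POLG. The number was 4 with DESeq2 (MFF, MFN1, OPA1 and TFAM) and 1, MFF, without the submission term.

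The same question was asked of the H448L enzyme, in a comparison that shares its WT libraries with the first. MFF was 1.28-fold lower, MFN1 1.23-fold lower and OPA1 1.15-fold lower. These 3 members fell, 0 rose and 33 did not pass by edgeR (8.33% of the members, against 7.97% of all genes tested, 2.97% higher and 4.99% lower), and 11 were at an unadjusted p under 0.05. The members' median was −0.02, against 0.01 over all genes, and 22 of 36 lay below 0. Of the 3 calls, 1 was left without WT 3 and 1 without R227Q 1, that of MFF in both cases.

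**Figure D1:**
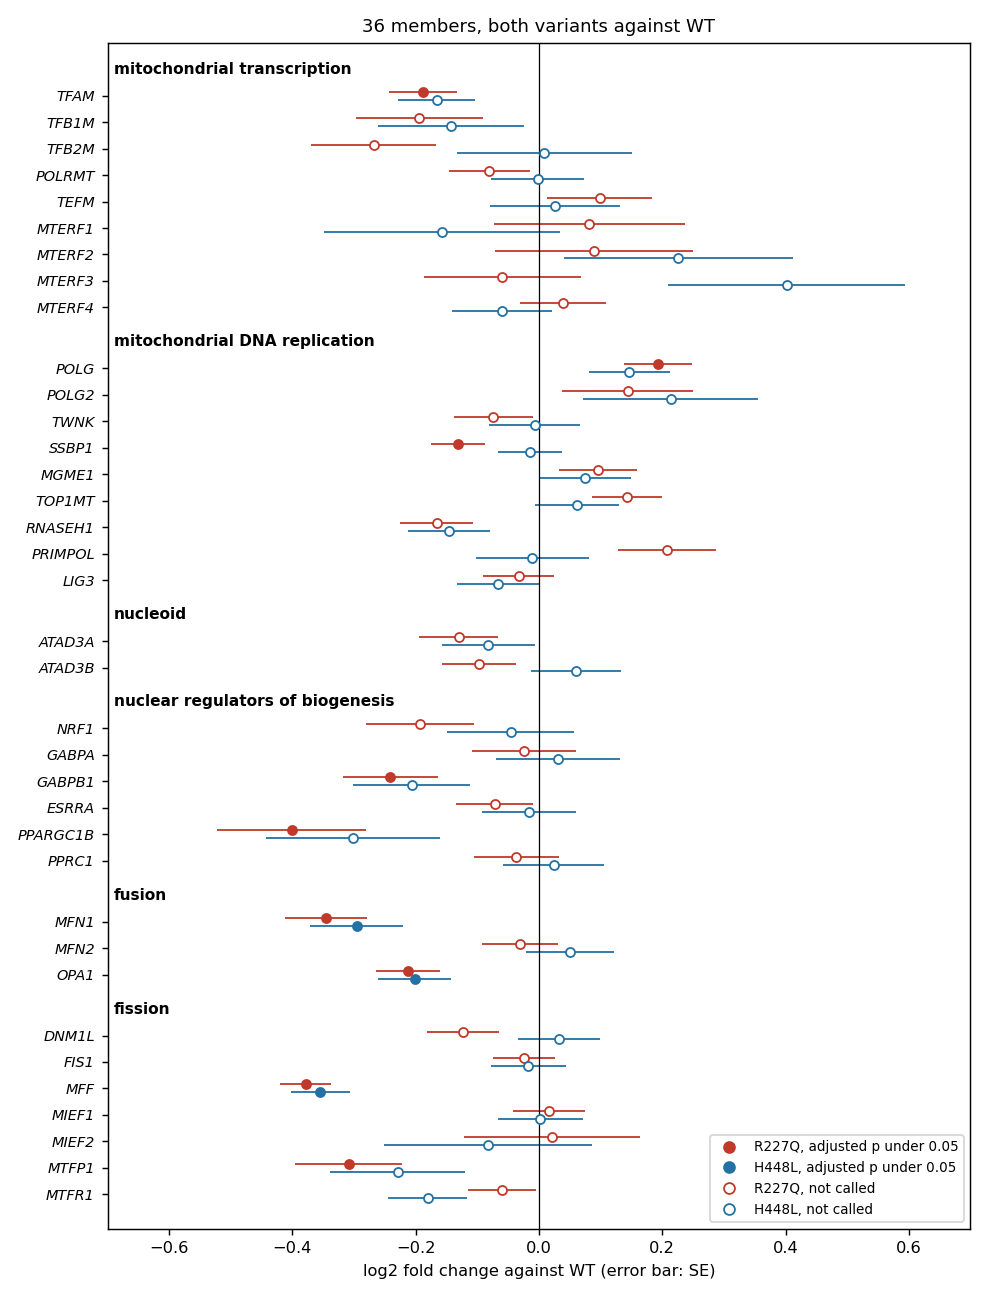
Log2 fold change of the 36 genes against WT (x axis, error bar SE, 3 libraries per group), ordered by role, for R227Q and H448L; filled points passed the edgeR test at an adjusted p under 0.05. MFF, MFN1 and OPA1 are filled for both variants, and POLG is the filled point to the right of 0.

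MFF is the outer-membrane receptor that brings the division dynamin to the organelle. MFF was at 211, 214 and 214 CPM in the WT libraries, 163, 166 and 168 CPM in the R227Q libraries and 166, 168 and 179 CPM in the H448L libraries. All 6 variant libraries lay below all 3 WT libraries, and libraries of the same genotype from different submissions had similar levels. Against WT its log2 fold change was −0.38 ± 0.04 (SE) for R227Q and −0.35 ± 0.05 for H448L (edgeR adjusted p = 1.0e-07 and 1.2e-05). Within SDKYMR, R227Q differed from WT by −0.39, and within 4LJFHN by −0.37, while H448L differed by −0.35. Among the called members it alone kept its call in all alternatives run, 19 for R227Q (−0.39 to −0.36) and 18 for H448L (−0.38 to −0.32), with a largest adjusted p of 0.0142 and 0.0269. MFF (GRCh38 chromosome 2, 227325151 to 227357836, plus strand) shares 48 exon bases with an antisense gene.

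MFN1 (chromosome 3, 179347692 to 179394931, plus strand) tethers and fuses outer membranes. It stood at 36.2, 40.1 and 52.5 CPM in the WT libraries, 29.8, 38.6 and 45.2 CPM in the R227Q libraries and 43.7, 44.0 and 43.2 CPM in the H448L libraries. The 4LJFHN libraries were higher than the SDKYMR libraries of the same genotype, so the groups overlapped, and within each submission every variant library lay below its WT libraries. On the log2 scale it differed from WT by −0.35 ± 0.07 for R227Q and −0.30 ± 0.08 for H448L (edgeR adjusted p = 4.2e-04 and 0.0128). The within-submission values were −0.36 in SDKYMR and −0.34 in 4LJFHN for R227Q, and −0.29 for H448L. The R227Q call was kept without any 1 library and lost without the submission term (−0.20), where the H448L value was −0.03. The H448L call was lost without WT 3 (−0.32, edgeR adjusted p = 0.234) and without R227Q 1 (−0.29, 0.0581).

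OPA1 (chromosome 3, 193593144 to 193697823, plus strand) fuses inner membranes and shapes cristae. Its values were 81.8, 82.9 and 113.7 CPM in the WT libraries, 71.7, 98.4 and 98.7 CPM in the R227Q libraries and 102.4, 105.9 and 91.9 CPM in the H448L libraries. Here too the groups overlapped across submissions, and within each one the variant libraries were the lower ones. The fitted log2 fold change was −0.21 ± 0.05 for R227Q and −0.20 ± 0.06 for H448L (edgeR adjusted p = 0.0042 and 0.0322). The R227Q call was lost without WT 3 (−0.21, edgeR adjusted p = 0.117) or R227Q 1 (−0.22, 0.0715). The H448L call was lost without WT 3 (−0.20, edgeR adjusted p = 0.38), R227Q 1 (−0.20, 0.0946) or H448L 3 (−0.14, 0.111), with DESeq2 (−0.21, 0.0501) or upper-quartile factors (−0.18, 0.0573). Without the submission term the H448L value of OPA1 turned to 0.058. OPA1 shares 208 exon bases with its antisense gene OPA1-AS1, and the sources used here do not say whether counting used strand.

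**Figure D2:**
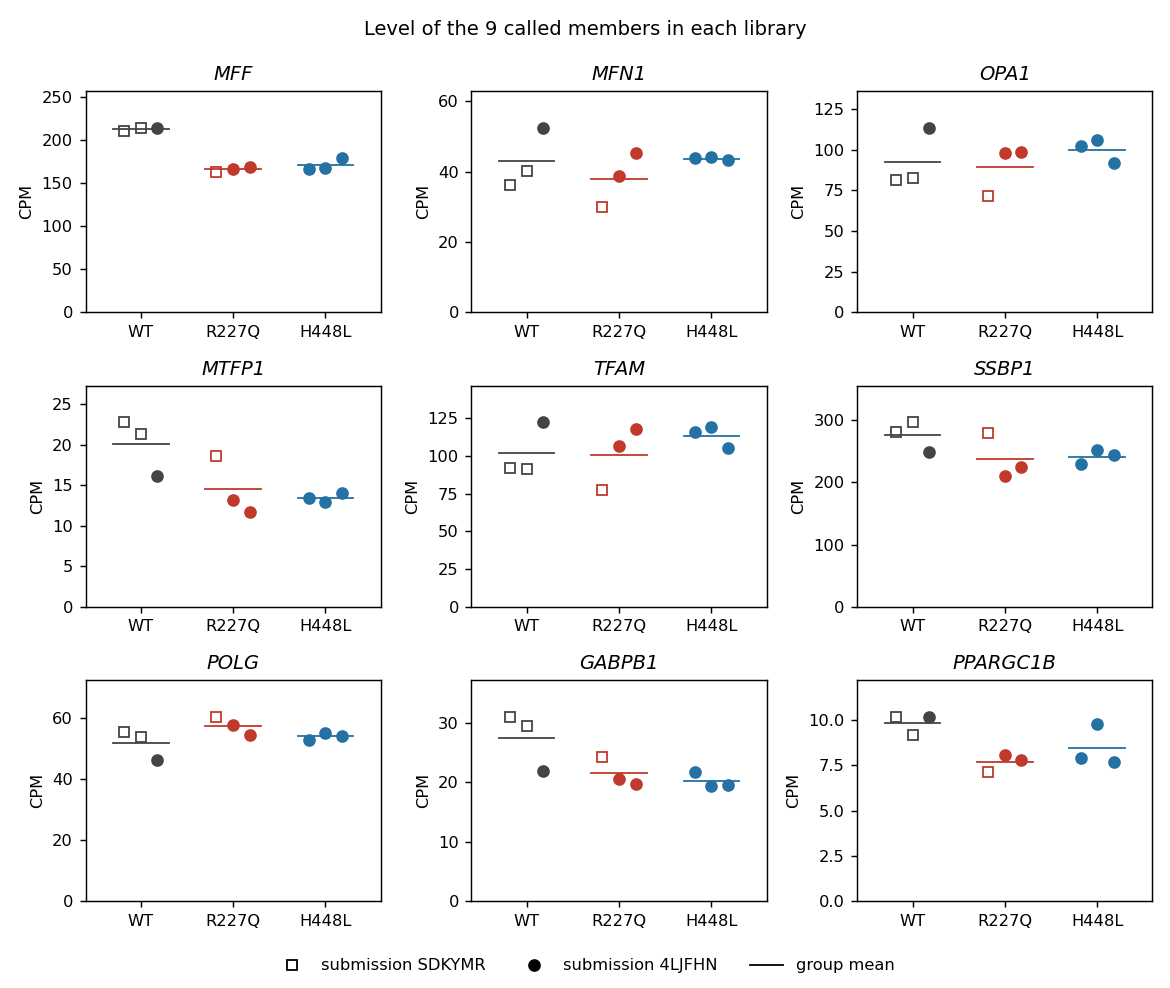
CPM of the 9 members called in R227Q against WT in each of the 9 libraries (linear y axes that start at 0, 1 panel per gene), grouped by genotype, with open squares for SDKYMR, filled circles for 4LJFHN and a line at the group mean. For MFF the 6 variant libraries sit below the 3 WT libraries, whereas for MFN1, OPA1 and TFAM the submissions separate within WT and within R227Q. All H448L libraries are from 4LJFHN.

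The sequence just before the start of these 3 genes is shown because they carry the calls made in both variants, and because NRF1 and GABP, the factors among the regulators below, bind known motifs in such promoters. Each is 120 bases of the plus strand from RefSeq (GRCh38.p14), in lower case, ending at the base before the earliest GENCODE v29 start (for MFN1, 3 bases past it), with a motif in capitals where 1 was found: the ETS motif CCGGAAGT that GABP recognises in MFN1, and the NRF1 core GCGCATGC in OPA1. The positions are chr2:227325031-227325150 for MFF, chr3:179347575-179347694 for MFN1 and chr3:193593024-193593143 for OPA1.
MFF: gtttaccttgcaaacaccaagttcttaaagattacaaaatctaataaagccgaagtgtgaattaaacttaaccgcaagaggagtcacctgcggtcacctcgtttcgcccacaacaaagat
MFN1: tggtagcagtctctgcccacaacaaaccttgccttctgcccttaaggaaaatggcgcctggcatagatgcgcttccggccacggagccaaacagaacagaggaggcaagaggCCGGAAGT
OPA1: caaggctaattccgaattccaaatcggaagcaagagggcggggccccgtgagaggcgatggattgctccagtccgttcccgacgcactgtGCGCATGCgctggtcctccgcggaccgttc
The MFN1 motif began 22 bases before the RefSeq start and the OPA1 motif 94 bases before it, and none of the 3 MFF windows held either motif. Both motifs were searched on both strands, as GCGCATGC or its reverse complement GCATGCGC and as CCGGAAGT or ACTTCCGG, and the NRF1 and ETS letters share no match in these 3 windows. In OPA1 the match runs on into GCATGCGC, so both orientations overlap there. Windows of 300 bases around the start were found for 30 of the 36 members, 35 windows in all. TWNK, TOP1MT, MTERF3, ATAD3B, NRF1 and MTFR1 had none. The NRF1 core was in 14.3% of the member windows and in 3.74% of 22198 windows of protein-coding genes. It lay in windows of TFB2M, OPA1, TFB1M, ESRRA and POLRMT. The ETS motif was in 31.4% of the member windows (30% of the 30 members) and in 5.33% of the protein-coding ones, in windows of MTERF4, MFN1, MTERF1, FIS1, SSBP1, TEFM, POLRMT, GABPA and MIEF1. The 3 windows of SSBP1 overlap and hold the same site, which is counted 3 times in the share of windows and lies after the start in all but 1 of them. Of the 9 members called in R227Q, 1 held the NRF1 core and 2 the ETS motif, and of the 21 others with a window, 4 and 7 did. A match is a description of letters, not of binding.

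Among the other fission genes, MTFP1, an inner-membrane protein that promotes division, was also called in R227Q. It was at 22.8, 21.3 and 16.1 CPM in the WT libraries, 18.7, 13.2 and 11.7 CPM in the R227Q libraries and 13.4, 12.9 and 14.1 CPM in the H448L libraries. R227Q 1 lay above WT 3, so R227Q overlapped WT, while the H448L libraries lay below all WT libraries. WT 1 and WT 2 are from SDKYMR, however, where MTFP1 was 1.49-fold higher than in 4LJFHN (edgeR adjusted p = 3.4e-06). Only WT 3, at 16.1 CPM, shares its submission with the H448L libraries. Its log2 fold change was −0.31 ± 0.09 for R227Q and −0.23 ± 0.11 for H448L (edgeR adjusted p = 0.0129 and 0.217), and the R227Q call was lost without WT 3 (−0.25) or R227Q 1 (−0.39). MTFP1 is uncertain because 890 of its exon bases also belong to AC004832.3 on the same strand. DNM1L, the dynamin that cuts the organelle, was at 46.6, 43.9 and 53.9 CPM in the WT libraries, 42.0, 49.5 and 49.6 CPM in the R227Q libraries and 57.2, 57.1 and 52.8 CPM in the H448L libraries. Both variants overlapped WT, while the 3 H448L libraries lay above the 3 R227Q libraries, which come in part from the other submission. Neither variant passed the test against WT (−0.12 ± 0.06 for R227Q and 0.03 ± 0.07 for H448L, edgeR adjusted p = 0.151 and 0.837). MFN2, the second mitofusin, was at 54.6, 54.4 and 55.5 CPM in the WT libraries, 52.1, 60.2 and 53.0 CPM in the R227Q libraries and 59.2, 55.6 and 64.3 CPM in the H448L libraries. It did not pass either (−0.03 ± 0.06 and 0.05 ± 0.07, edgeR adjusted p = 0.798 and 0.748), so of the 3 fusion genes MFN1 and OPA1 were called and MFN2 was not. The adaptors FIS1, MIEF1 and MIEF2 lay between −0.08 and 0.02 in both variants without passing. MTFR1, a fission regulator, stood at −0.06 in R227Q and −0.18 ± 0.06 in H448L (edgeR adjusted p = 0.508 and 0.0816). Without H448L 1 the H448L value was −0.24 and passed (0.0263). In all, 4 of the 10 fusion and fission genes fell in R227Q and 3 in H448L, and 0 rose in either, against 9.91% and 4.99% of all genes tested that fell.

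Of the transcription genes, TFAM (chromosome 10, 58385022 to 58399221, plus strand) was the 1 of 9 that was called, in R227Q (11.1%, against 17.4% of all genes tested). In H448L 0 of the 9 passed by edgeR (7.97% of all genes tested did), with 2 at an unadjusted p under 0.05. TFAM was at 92.1, 91.3 and 122.2 CPM in the WT libraries, 77.3, 106.3 and 118 CPM in the R227Q libraries and 115.8, 119.2 and 105.1 CPM in the H448L libraries. The variant libraries lay below the WT libraries of their own submission, and the groups overlapped across submissions. Against WT its log2 fold change was −0.19 ± 0.05 for R227Q and −0.17 ± 0.06 for H448L (edgeR adjusted p = 0.0162 and 0.103). Within submissions R227Q differed by −0.26 in SDKYMR and −0.13 in 4LJFHN. The R227Q call was lost without WT 3 (−0.26), R227Q 1 (−0.13) or R227Q 2 (−0.16). The polymerase POLRMT was at 35.9, 37.6 and 38.6 CPM in the WT libraries, 32.6, 40.1 and 38.6 CPM in the R227Q libraries and 38.7, 42.6 and 41.7 CPM in the H448L libraries. On the log2 scale it differed from WT by −0.08 ± 0.06 for R227Q and −0.0020 ± 0.07 for H448L (edgeR adjusted p = 0.45 and 0.993). TFB2M, which opens the promoter for POLRMT, was at 19.1, 18.6 and 7.78 CPM in the WT libraries, 16.7, 5.59 and 5.67 CPM in the R227Q libraries and 6.86, 6.92 and 8.08 CPM in the H448L libraries. The SDKYMR libraries were the high ones in both genotypes, and neither variant passed (−0.27 ± 0.10 and 0.01 ± 0.14, edgeR adjusted p = 0.0678 and 0.984). TFB1M, a methyltransferase of mitochondrial ribosomal RNA, stood at −0.19 ± 0.10 and −0.14 ± 0.12 (edgeR adjusted p = 0.217 and 0.554). The elongation factor TEFM and the MTERF family, proteins that bind mitochondrial nucleic acid (MTERF1, MTERF2, MTERF3 and MTERF4), did not pass. MTERF3 had the widest gap between the variants, at −0.06 ± 0.13 in R227Q and 0.40 ± 0.19 in H448L (edgeR adjusted p = 0.809 and 0.22), and that gap did not pass either.

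Of the 9 replication genes 1 rose and 1 fell in R227Q, and none of the 9 was called in H448L, where 2 were at an unadjusted p under 0.05. These are 22.2% and 0% called, against 17.4% and 7.97% of all genes tested. POLG was at 55.6, 53.8 and 46.5 CPM in the WT libraries, 60.4, 57.8 and 54.7 CPM in the R227Q libraries and 53.0, 55.1 and 54.1 CPM in the H448L libraries. WT 3 was the lowest library, and the other values overlapped between genotypes. The fitted log2 fold change was 0.19 ± 0.05 for R227Q and 0.15 ± 0.07 for H448L (edgeR adjusted p = 0.014 and 0.184), with 0.13 in SDKYMR and 0.26 in 4LJFHN for R227Q. The call was lost without WT 3 (0.13, edgeR adjusted p = 0.352), and POLG (chromosome 15, 89305198 to 89334861, minus strand) shares 458 exon bases with FANCI on the opposite strand. SSBP1, which coats single strands at the fork, was at 281.8, 296.5 and 248.5 CPM in the WT libraries, 278.8, 209.9 and 224 CPM in the R227Q libraries and 229, 251.9 and 243.7 CPM in the H448L libraries. The R227Q libraries were below the WT libraries of their submission, by −0.06 in SDKYMR and −0.21 in 4LJFHN, and the groups overlapped. Its log2 fold change was −0.13 ± 0.04 for R227Q and −0.01 ± 0.05 for H448L (edgeR adjusted p = 0.0382 and 0.913). The R227Q call was lost without WT 2 (−0.13), WT 3 (−0.06) or R227Q 2 (−0.10), and 9 of 19 alternatives ended it. SSBP1 shares 26 exon bases with the antisense gene WEE2-AS1 and 108 with the pseudogene TAS2R6P.

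The helicase TWNK was at 37.0, 34.1 and 43.4 CPM in the WT libraries, 34.6, 43.5 and 38.4 CPM in the R227Q libraries and 42.5, 43.3 and 44.5 CPM in the H448L libraries. It overlapped in all groups and did not pass (−0.07 ± 0.06 and −0.01 ± 0.07, edgeR adjusted p = 0.485 and 0.976). Several other replication genes were near the threshold in R227Q. RNASEH1, which removes RNA primers, stood at −0.17 ± 0.06 (edgeR adjusted p = 0.0514) and PRIMPOL, a primase that restarts stalled forks, at 0.21 ± 0.08 (0.0708). TOP1MT, the mitochondrial topoisomerase, stood at 0.14 ± 0.06 (edgeR adjusted p = 0.0835). RNASEH1 gained a call with limma-voom (−0.17), RLE factors (−0.18) or the replicate block (−0.19), and without H448L 3 (−0.16). PRIMPOL gained a call without WT 2 (0.25) or H448L 3 (0.21), and with upper-quartile factors (0.23), as TOP1MT did (0.17). POLG2, the accessory polymerase subunit, MGME1, an exonuclease, and LIG3, a DNA ligase, did not pass in either variant, with log2 fold changes from −0.07 to 0.21. In the nucleoid, the ATPases ATAD3A and ATAD3B stood at −0.13 ± 0.06 and −0.10 ± 0.06 in R227Q (edgeR adjusted p = 0.167 and 0.294). ATAD3A passed without R227Q 3 (−0.18). Both are near-identical copies, so the division of reads between them is uncertain.

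The 6 nuclear regulators of biogenesis all lay below 0 in R227Q, and 2 of them were called lower (33.3%, against 9.91% of all genes tested). GABPA (−0.02) and PPRC1 (−0.04) were within 1 SE of 0. Within submissions these 2 stood at −0.12 and −0.08 in SDKYMR, and at 0.08 and 0.01 in 4LJFHN. In H448L 4 of the 6 lay below 0, and 0 passed by edgeR (4.99% of all genes tested were called lower), with 2 at an unadjusted p under 0.05. PPARGC1B, a coactivator of the PGC-1 family, was at 10.2, 9.16 and 10.2 CPM in the WT libraries, 7.13, 8.08 and 7.77 CPM in the R227Q libraries and 7.93, 9.78 and 7.68 CPM in the H448L libraries. The R227Q libraries lay below all WT libraries, and H448L 2 lay among them. Against WT its log2 fold change was −0.40 ± 0.12 for R227Q, the largest fall among the members, and −0.30 ± 0.14 for H448L (edgeR adjusted p = 0.0195 and 0.204). Leaving out WT 1 (−0.36), WT 3 (−0.44) or R227Q 1 (−0.36) ended the R227Q call. GABPB1, the subunit that lets GABP activate transcription, was at 30.9, 29.4 and 21.9 CPM in the WT libraries, 24.2, 20.6 and 19.8 CPM in the R227Q libraries and 21.7, 19.4 and 19.6 CPM in the H448L libraries. R227Q 1 lay above WT 3, and the H448L libraries lay below all WT libraries. GABPB1 was 1.33-fold higher in SDKYMR, the submission of WT 1 and WT 2 (edgeR adjusted p = 6.1e-05). Against WT 3, which shares the submission of H448L, H448L 1 was at 21.7 against 21.9 CPM. On the log2 scale it differed from WT by −0.24 ± 0.08 and −0.21 ± 0.09 (edgeR adjusted p = 0.0294 and 0.198). The R227Q call was lost without WT 1 (−0.21), WT 3 (−0.33) or R227Q 1 (−0.13), and GABPB1 shares 424 exon bases with its antisense gene.

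GABPA, the DNA-binding partner of GABPB1, was at 20.1, 21.7 and 18.6 CPM in the WT libraries, 19.4, 20.9 and 18.8 CPM in the R227Q libraries and 21.1, 19.2 and 20.7 CPM in the H448L libraries. It overlapped in all groups (−0.02 ± 0.08 and 0.03 ± 0.10, edgeR adjusted p = 0.886 and 0.902). NRF1 was at 17.6, 16.9 and 17.5 CPM in the WT libraries, 15.6, 14.7 and 15.1 CPM in the R227Q libraries and 17.4, 17.3 and 15.6 CPM in the H448L libraries. The R227Q libraries lay below all WT libraries, yet the difference did not pass (−0.19 ± 0.09, edgeR adjusted p = 0.136), and H448L stood at −0.05 ± 0.10 (0.856). Separation from WT also went upward among the members. MGME1 and TOP1MT lay above all WT libraries in R227Q, as did POLRMT and MFN2 in H448L, and none of these was called. Only WT 3 shares the submission of H448L. POLRMT was at 38.6 CPM in WT 3 and 38.7 CPM in H448L 1, with a fitted log2 fold change of −0.0020. MFN2 was at 55.5 CPM in WT 3 and 55.6 CPM in H448L 2, with a fitted value of 0.05. The share of all genes separated in this way was not counted. The nuclear receptor ESRRA and the coactivator PPRC1 stood at −0.07 and −0.04 in R227Q (edgeR adjusted p = 0.486 and 0.778).

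The direct comparison of H448L with R227Q asked where the variants differ from each other. By edgeR 0 of 36 members passed (0.207% of all genes did, 0.0828% higher and 0.124% lower), 6 were at an unadjusted p under 0.05, and DESeq2 and limma-voom also called 0. For MFF the difference was 0.02 ± 0.04, for MFN1 0.05 ± 0.07 and for OPA1 0.01 ± 0.05 (edgeR adjusted p = 0.907, 0.864 and 0.971). SSBP1, called in R227Q against WT only, differed by 0.12 ± 0.05 (edgeR adjusted p = 0.308), so its 2 variant effects were not shown to differ.

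**Figure D3:**
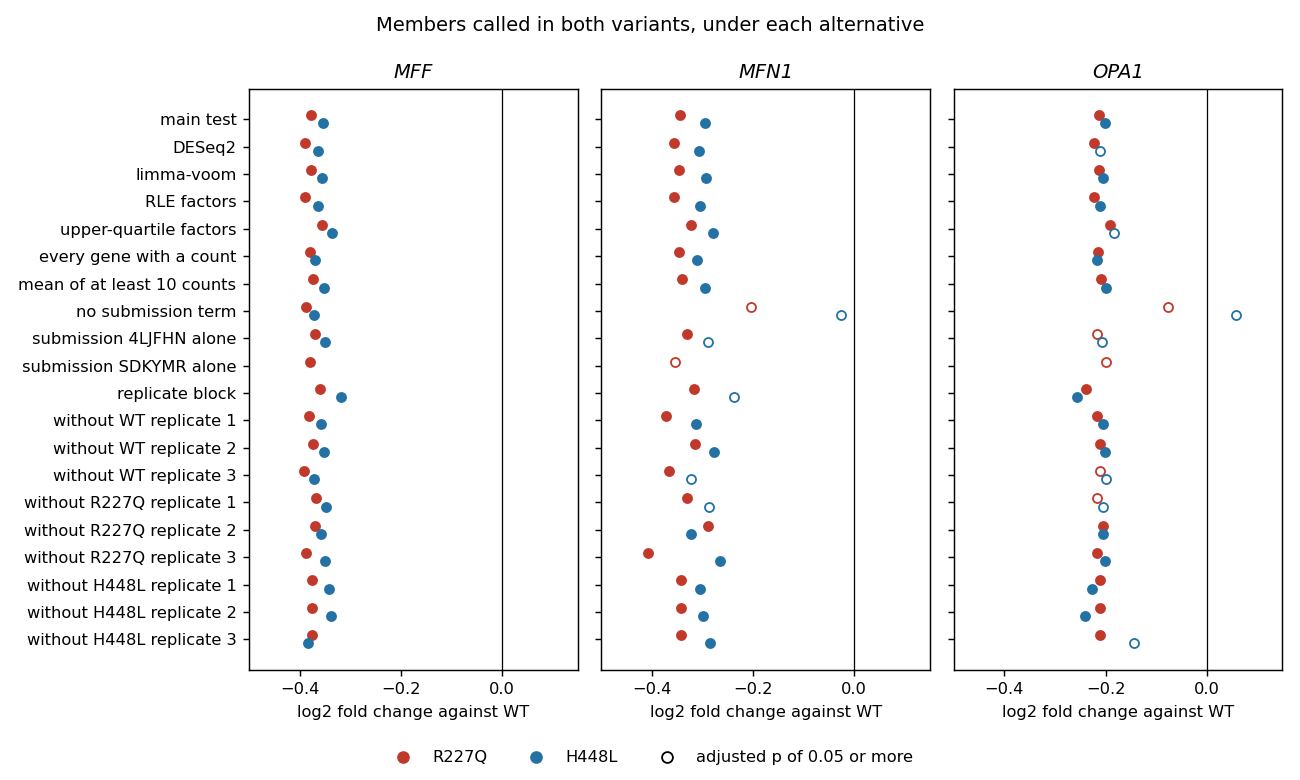
Log2 fold change against WT (x axis) of MFF, MFN1 and OPA1, 1 panel per gene, in R227Q (red) and H448L (blue), for the test as reported and each alternative setting or left-out library (y axis), with filled points at an adjusted p under 0.05. MFF is filled throughout, and OPA1 in H448L has a point to the right of 0, the fit without a submission term.

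More members differed between submissions than between genotypes. Between SDKYMR and 4LJFHN, 23 of the 36 members differed by edgeR, 14 higher and 9 lower in SDKYMR, against 43.8% of all genes tested. MTERF3 was 3.94-fold higher in SDKYMR, TFB2M 2.79-fold and POLG2 2.01-fold (edgeR adjusted p = 9.9e-13, 1.7e-12 and 8.3e-09). MTERF3 went from 13.5 to 14.0 CPM in the 3 SDKYMR libraries to 2.93 to 6.06 CPM in the others. RNASEH1 was 1.53-fold lower in SDKYMR and PRIMPOL 1.40-fold lower. MFN1, OPA1 and TFAM stood at −0.43 to −0.41 on the log2 scale, further from 0 than their differences between genotypes. MFF differed by 0.03 ± 0.04 (edgeR adjusted p = 0.627). The sources used here do not say how the submissions differ.

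**Figure D4:**
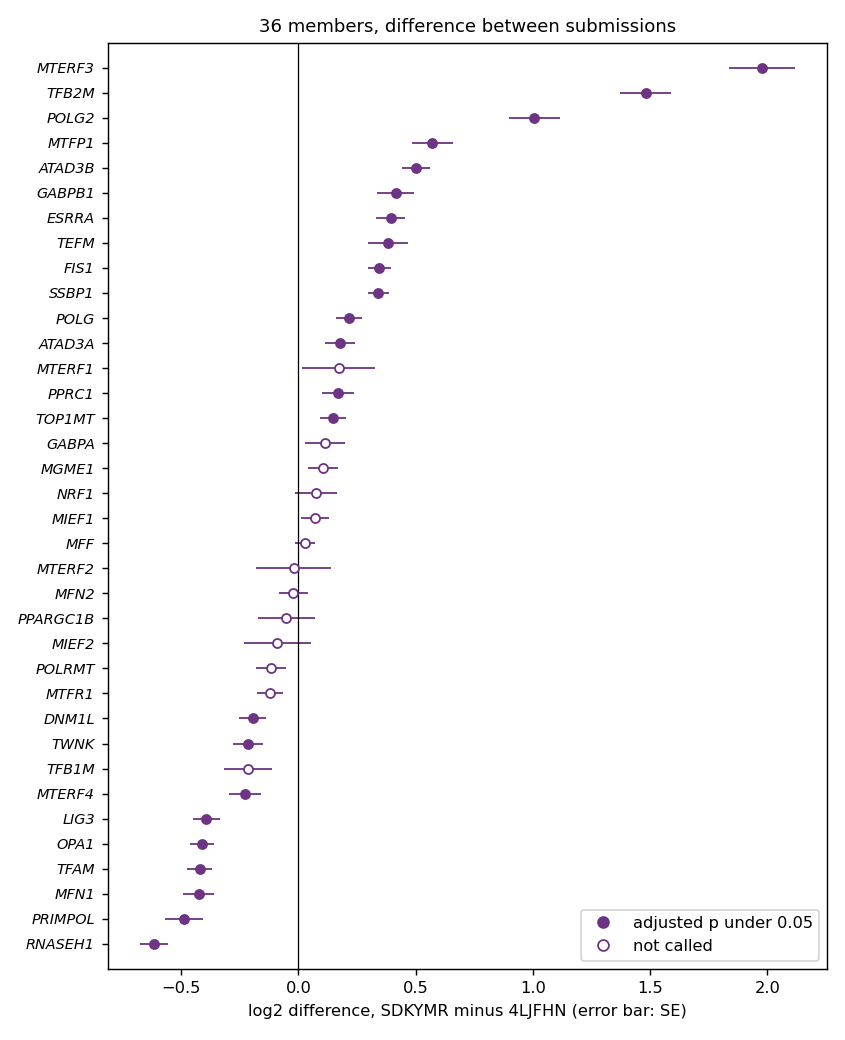
Log2 difference between submissions, SDKYMR minus 4LJFHN (x axis, error bar SE), for the 36 members, ordered by size; filled points passed the edgeR test. MTERF3, TFB2M and POLG2 lie beyond 1, and MFF lies at 0.03.

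Further genes of the same processes were counted by list. Of 12 genes that supply mitochondrial deoxynucleotides, 2 fell in R227Q and 1 in H448L, which is 16.7% and 8.33% called, close to the 17.4% and 7.97% of all genes tested. SLC25A33, a pyrimidine nucleotide carrier, fell by 0.29 on the log2 scale in R227Q and by 0.26 in H448L (edgeR adjusted p = 5.5e-04 and 0.0149). The R227Q call was lost without R227Q 1 (−0.26), and the H448L call without WT 3 (−0.30) or R227Q 1 (−0.24). ABAT and TYMP, the other genes named for this list, did not pass (−0.27 and 0.31 in R227Q). Its second called gene, SLC25A36, another pyrimidine nucleotide carrier, was named after its value was seen (−0.19, edgeR adjusted p = 0.0274). It did not pass without WT 2 (−0.16), without WT 3 (−0.23), without R227Q 1 (−0.15) or without R227Q 3 (−0.18).

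Of 12 nuclease, topoisomerase and repair genes, 2 rose and 2 fell in R227Q, and 1 fell in H448L. These are 33.3% and 8.33% called, against 17.4% and 7.97% of all genes. The 4 genes act in base excision repair. APEX1, the main abasic-site endonuclease, fell by 0.18 on the log2 scale in R227Q and by 0.15 in H448L (edgeR adjusted p = 0.00275 and 0.0436), and APEX2 fell by 0.21 in R227Q (0.00601). OGG1, the glycosylase that removes oxidised guanine, stood at 0.24 ± 0.08 in R227Q (edgeR adjusted p = 0.0431). MUTYH, which removes adenine paired with it and was named after its value was seen, stood at 0.30 (edgeR adjusted p = 0.0175). The R227Q calls were lost without WT 3 for APEX2 (−0.17), OGG1 (0.15) and MUTYH (0.27), and without R227Q 1 for APEX1 (−0.14), OGG1 (0.37) and MUTYH (0.34). For OGG1 the same held without WT 1 (0.23), R227Q 2 (0.22) or R227Q 3 (0.24). The H448L call of APEX1 was lost without WT 1 (−0.15), WT 2 (−0.15), WT 3 (−0.20), R227Q 1 (−0.13), R227Q 3 (−0.14), H448L 2 (−0.17) or H448L 3 (−0.11). OGG1 shares 2180 exon bases with CAMK1 and MUTYH 552 with TOE1, both on the opposite strand, so their values are uncertain.

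Of 9 cristae-organizing genes, 2 fell in R227Q and 1 in H448L, which is 22.2% and 11.1% called, against 17.4% and 7.97% of all genes. APOO, a subunit of the MICOS complex at crista junctions, was at 44.1, 42.8 and 40.3 CPM in the WT libraries, 31.1, 29.5 and 33.2 CPM in the R227Q libraries and 36.4, 33.4 and 34.5 CPM in the H448L libraries. Every variant library lay below every WT library. It fell by 0.43 on the log2 scale in R227Q and by 0.27 in H448L (edgeR adjusted p = 2.8e-05 and 0.0301). The H448L call was lost without WT 1 (−0.26), WT 3 (−0.36), R227Q 1 (−0.23), R227Q 3 (−0.24), H448L 2 (−0.24) or H448L 3 (−0.26), and APOO shares 134 exon bases with CXorf58 on the opposite strand. CHCHD6, a second MICOS subunit, fell by 0.25 in R227Q (edgeR adjusted p = 0.00525), which no longer passed without WT 3 (−0.24) or R227Q 1 (−0.27), and MICOS13 did not pass (0.13).

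Among 13 other regulators of biogenesis tested, 2 fell in R227Q (15.4% called, against 17.4% of all genes) and 0 passed by edgeR in H448L (7.97% of all genes), where 5 were at an unadjusted p under 0.05. NRIP1, a corepressor of nuclear receptors, stood at −0.46 ± 0.10 in R227Q (edgeR adjusted p = 0.00219), which no longer passed without WT 3 (−0.47) or R227Q 1 (−0.45), and it shares 562 exon bases with an antisense gene. GABPB2, the second activating subunit of GABP, stood at −0.37 ± 0.13 (edgeR adjusted p = 0.0493). Leaving out any of 6 libraries ended that call: WT 2 (−0.36), WT 3 (−0.17), R227Q 1 (−0.53), R227Q 2 (−0.27), H448L 1 (−0.37) or H448L 2 (−0.37). PRKAA2, a catalytic subunit of AMP-activated kinase, did not pass (−0.12), and PPARGC1A and ESRRB were below the count filter. By edgeR 0 of 16 dynamics adaptors, proteases and ligases passed in either variant (3 and 1 at an unadjusted p under 0.05), among them GDAP1 (0.23 in R227Q), YME1L1 (−0.13) and STOML2 (0.10). The same held for 5 transport genes (1 and 1 at an unadjusted p under 0.05), with RHOT2 at 0.09, TRAK1 at −0.14 and KIF5B at −0.05 in R227Q. The mRNAs encoded by mitochondrial DNA itself, the product of this machinery, went both ways: 7 of 13 rose and 2 fell in R227Q (range −0.22 to 0.50), and 3 rose and 1 fell in H448L (−0.26 to 0.38). These are 69.2% and 30.8% called, against 17.4% and 7.97% of all genes. Nuclear copies of these genes make their counts uncertain.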

How the data were processed

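Poly-A mRNA libraries were made by a sequencing service from cell lysates, per the labels' protocols, with GRCh38 as the genome build, per the submitters' processing notes. The sources used here do not give the aligner, counting program, annotation or use of strand. The values deposited by the authors are estimated counts, per the file headers, in 1 table per submission, with 78986 entries, of which 92 were ERCC spike-ins and were left out. The same deposited tables hold CPM, per the file headers, which equal each count scaled to a library total of 1000000 within 3.8e-06. Between 89.1% and 90.1% of the deposited count values per library, values of 0 included, were exactly whole, and the rest were rounded to whole numbers. After rounding, 26725 to 28388 of the 78894 genes had a count in a library, so many of the whole values were 0.

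Genes kept by filterByExpr with the groups (16908) were fitted with TMM factors (0.969 to 1.03) and terms for the 3 groups and for the submission over all 9 libraries (5 residual degrees of freedom) and tested with edgeR's quasi-likelihood test, two-sided, with Benjamini-Hochberg adjustment over all of them. Standard errors were taken as log2 fold change over the square root of F. Values within a submission subtract mean log2 CPM (prior count 2) and carry no test. On simulated data for R227Q against WT, 65% of 200 genes changed 1.25-fold were recovered among 16681 genes. The changed genes were drawn only from those above a set mean count. Smaller changes, such as the 1.16-fold of OPA1 or the 1.14-fold of TFAM, were not simulated. The tools were edgeR 4.0.16, DESeq2 1.42.0 and limma 3.58.1 in R 4.3.3. Positions and exon overlaps are from GENCODE v29, promoters from RefSeq.

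The members, lists and rules were chosen with earlier results of these data known. Named were SARS2, every member, called members and 10 fixed ones with values, and the 3 genes of each list with the smallest mean rank of p over both variants. Markers were read for haematopoietic, epithelial and fibroblast cells. Alternatives were other tools (DESeq2, limma-voom), other factors (upper quartile, RLE), other count filters, no submission term, each submission alone, a replicate block, and each library left out.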

Additional observations from a re-analysis of the deposited data

How the results depend on the processing

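WT 3 and R227Q 1, each alone in its genotype and submission, carried much of the result. Over the fits that left out 1 library, the number of genes called in R227Q against WT ran from 1093 to 3262 and of members from 2 to 11. In H448L against WT these were 253 to 1378 and 1 to 4, and in H448L against R227Q 4 to 91 genes and 0 to 0 members. DESeq2 called 1546, 733 and 54 genes in the 3 comparisons, and 4 members in R227Q against WT. Without the submission term the counts were 312, 147 and 1 genes, with 1 member in R227Q and 1 in H448L, and the H448L value of OPA1 reversed to 0.058 (adjusted p = 0.806). Submission 4LJFHN alone gave 1138 and 734 genes, with 2 members in R227Q and 1 in H448L, and SDKYMR alone 903 genes and 2 members. Testing every gene with a count gave 122 genes in H448L against R227Q. The cause of these differences was not tested. Among all genes called in R227Q, 43.1% were higher, against 54% with upper-quartile factors and 32.7% with DESeq2, and in H448L 37.3%, against 47.2% and 19.5%.

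Replicate numbers were not treated as pairs, since the labels do not say what they share. Between WT and R227Q the group and submission terms tie the deviations of the libraries, so pairing could not be checked there, and between either and H448L same-numbered libraries correlated by −0.022 to 0.043. With the replicate block 2669, 1055 and 31 genes and 9, 3 and 0 members were called, with SSBP1 in R227Q (−0.10) and MFN1 in H448L (−0.24) no longer called and RNASEH1 in R227Q (−0.19) and MTFR1 in H448L (−0.25) called. Of 1755 values of uncalled members over the alternatives, 11 gained a call and 150 changed sign without one.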
